A study of Homo sapiens with 3 samples.

Results

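The aldo-keto reductases of families 1 and 7 were measured with Affymetrix arrays in HepG2, a cell line established from a human liver tumour. The genes were chosen by name: AKR1A1, AKR1B1, AKR1B10, AKR1C1, AKR1C2, AKR1C3, AKR1C4, AKR1D1, AKR7A2 and AKR7A3, with every array probe set annotated to exactly 1 of these symbols. Of the 10 genes, 8 were measured by 9 probe sets, out of 18417 genes with such a probe set, and 7 passed a filter that asked for a mean log2 value of at least 6.66 over the arrays (the 40th percentile of genes), as 11050 genes did. AKR1A1 and AKR1B1 had no probe set listed under their symbol alone and were not analysed here. The choice of genes was made with earlier results of these data known. There were 3 arrays and 3 groups, each of 1 array: untreated HepG2, HepG2 given graphene oxide (GO) for 24 h, and HepG2 given reduced graphene oxide (rGO), from which part of the oxygen has been removed, for 24 h. All cells were the same line in MEM medium, and each material was given at its own EC20, set from viability assays. The labels give no concentration, and whether GO and rGO were matched in dose is unknown.

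With 1 array per group there was no replicate, no test was possible, and each difference below compares 2 arrays rather than 2 conditions; the number of arrays limits the precision. Each array held log2 expression values for 33297 probe sets with medians between 6.63 and 6.66. All 13 measured hepatocyte and HepG2 markers, among them ALB and AFP, passed the level filter, as did 2 of 6 leukocyte, 3 of 7 fibroblast, 0 of 5 endothelial and 3 of 5 cholangiocyte markers. GO minus control had a median of 0.22 over the hepatocyte markers and ran from -0.85 for FGB to 0.73 for KRT18. Among markers of other cell types past the filter it ran from -0.34 for EPCAM to 0.79 for KRT19, both of cholangiocytes. The part of these shifts in the results was not tested. Differences from control among all genes past the filter had a robust SD (scaled median absolute deviation) of 0.244 log2 units for GO and 0.116 for rGO. In bulk RNA, fewer cells expressing a gene and less RNA per cell cannot be told apart.

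Aldo-keto reductases are soluble enzymes that use NADPH to reduce aldehydes and ketones to alcohols. In liver they act on lipid aldehydes, sugars, retinal, steroids, bile acid precursors and drugs. Many of them, AKR1B10 and the AKR1C genes above all, are known targets of NRF2, the transcription factor of the antioxidant response, and AKR1B10 is known for its high level in liver tumours.

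Among these enzymes, 4 were lower by 2-fold or more in the GO array than in the control array: AKR1B10, AKR1C2, AKR1C3 and AKR1C1, where 0.914% of all genes past the filter were as low. AKR1B10 was 3.99-fold lower and AKR1C2 was 3.14-fold lower, while AKR1C3 and AKR1C1 lay just past the 2-fold limit. AKR1D1, AKR7A2 and AKR7A3 stayed within 0.22 log2 units of control. After rGO, 0 of the 7 genes past the filter differed from control by 2-fold, as 0.0181% of genes did downward and 0% upward, or by 1.5-fold.

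**Figure D1:**
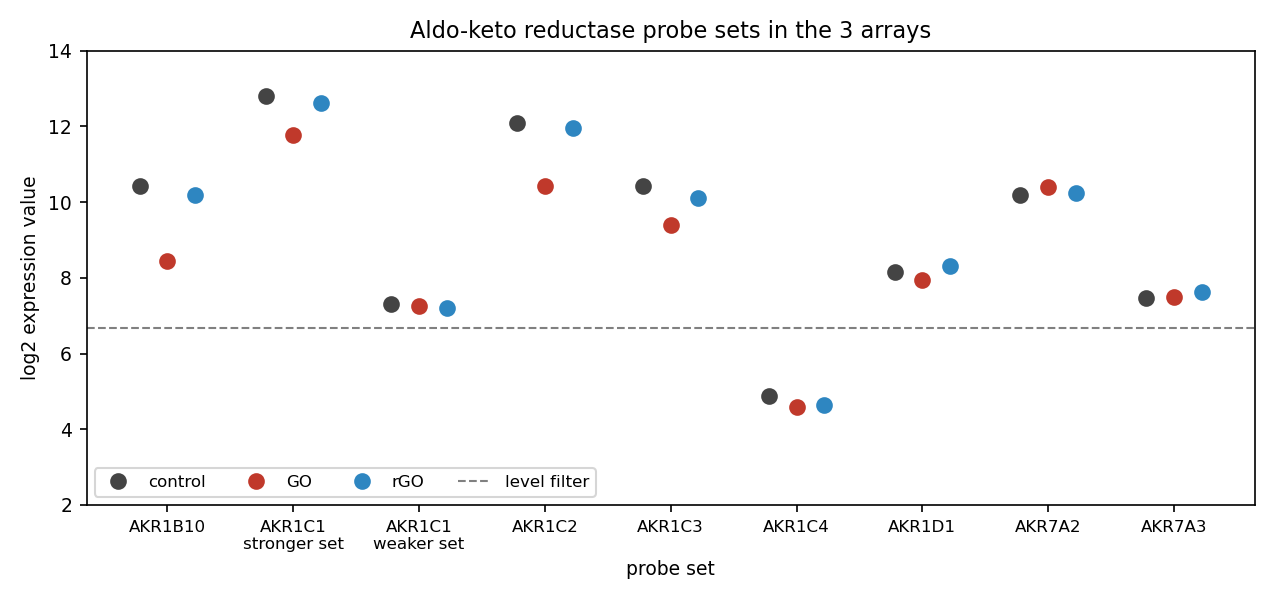
Log2 expression value (y axis) of each of the 9 aldo-keto reductase probe sets (x axis) in the control, GO and rGO arrays; each point is 1 array and the dashed line is the level filter at 6.66. The GO point lies well under the other points for AKR1B10, AKR1C2, AKR1C3 and the stronger AKR1C1 probe set, and the 3 points lie close together for the other probe sets.

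AKR1B10 reduces retinal and aliphatic and lipid-derived aldehydes. Its probe set read 10.43 in control cells, 8.44 after GO and 10.20 after rGO on the log2 scale. The GO array was low and the control and rGO arrays were close to each other. The difference was -1.99 for GO minus control, -0.23 for rGO minus control and -1.76 for GO minus rGO. Of 11050 genes it had the 6th lowest difference with GO and the 510th lowest with rGO.

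AKR1C1, the main 20-alpha-hydroxysteroid dehydrogenase, which inactivates progesterone, was measured by 2 probe sets that gave different results. The stronger one, annotated to the RefSeq transcript, read 12.81 in control cells, 11.78 after GO and 12.61 after rGO. The weaker one, annotated to a cDNA clone alone, stood at 7.32, 7.27 and 7.21 in the same order. Only the stronger probe set was lower with GO: it differed from control by -1.03 (2.04-fold lower), and the weaker by -0.05. Averaged, the 2 probe sets differed from control by -0.54, which is short of 2-fold. With quantile normalization the stronger probe set stood at -0.97, also short of it. After rGO the differences were -0.20 and -0.11.

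AKR1C2 inactivates dihydrotestosterone as a 3-alpha-hydroxysteroid dehydrogenase and binds bile acids tightly. Its log2 values were 12.08 in control cells, 10.43 after GO and 11.95 after rGO. The GO array was again the low one, with a difference from control of -1.65, the 8th lowest of 11050 genes. The rGO array differed from control by -0.13, and GO minus rGO was -1.52 (2.88-fold lower).

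AKR1C3, which makes testosterone from androstenedione and also acts as a prostaglandin F synthase, read 10.43 in control cells, 9.40 after GO and 10.10 after rGO. It was 2.05-fold lower with GO, a difference of -1.04, and 1.26-fold lower with rGO, a difference of -0.33. The order was control, then rGO, then GO, as it was for AKR1B10, AKR1C2, AKR1C4 and the stronger AKR1C1 probe set. The rGO difference of AKR1C3 was the lowest of the 7 genes in that comparison and the 152nd lowest of 11050.

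AKR1C4, the liver-enriched 3-alpha-hydroxysteroid dehydrogenase of bile acid synthesis, did not pass the level filter. It read 4.89 in control cells, 4.58 after GO and 4.65 after rGO, values at which background can hide a change. Its differences of -0.31 and -0.24 from control were close to each other. Because the AKR1C genes are very similar in sequence, 1 probe set may pick up transcripts of several of them, which makes each member's own value uncertain; the probes' sequences were not used here.

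The starts of these genes share sequence, and the windows are shown because AKR1C1, AKR1C2 and AKR1C3 were lower together in the GO array. The promoter table used here, from RefSeq (GRCh38.p14), held 12 windows for 9 of the 10 genes; the window of AKR1B10 was not analysed here. The 250 bases before each start were used. The capitals mark the longest run found in the AKR1C1, AKR1C2 and both AKR1C3 windows.
AKR1C1 (chr10:4963165-4963414, plus strand): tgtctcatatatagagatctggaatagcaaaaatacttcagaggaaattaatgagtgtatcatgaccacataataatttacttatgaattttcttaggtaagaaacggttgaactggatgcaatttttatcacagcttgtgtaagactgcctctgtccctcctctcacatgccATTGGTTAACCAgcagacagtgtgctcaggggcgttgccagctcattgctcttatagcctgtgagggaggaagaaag
AKR1C2 (chr10:5003858-5004107, minus strand): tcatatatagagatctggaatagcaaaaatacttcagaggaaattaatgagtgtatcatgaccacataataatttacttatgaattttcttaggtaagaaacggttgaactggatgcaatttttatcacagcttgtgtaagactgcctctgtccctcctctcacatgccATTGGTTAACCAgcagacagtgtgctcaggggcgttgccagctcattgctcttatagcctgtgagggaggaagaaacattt
AKR1C3, upstream start (chr10:5048531-5048780, plus strand): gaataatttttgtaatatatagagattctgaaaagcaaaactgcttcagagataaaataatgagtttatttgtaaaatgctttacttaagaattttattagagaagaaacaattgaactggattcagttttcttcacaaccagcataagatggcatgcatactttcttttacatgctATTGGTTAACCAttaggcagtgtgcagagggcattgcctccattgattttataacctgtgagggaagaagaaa
AKR1C3, downstream start (chr10:5094164-5094413, plus strand): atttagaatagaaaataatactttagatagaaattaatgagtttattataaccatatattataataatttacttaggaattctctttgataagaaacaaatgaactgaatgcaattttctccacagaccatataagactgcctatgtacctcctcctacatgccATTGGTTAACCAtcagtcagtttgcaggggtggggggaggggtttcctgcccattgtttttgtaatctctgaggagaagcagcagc
AKR1C4 (chr10:5196587-5196836, plus strand): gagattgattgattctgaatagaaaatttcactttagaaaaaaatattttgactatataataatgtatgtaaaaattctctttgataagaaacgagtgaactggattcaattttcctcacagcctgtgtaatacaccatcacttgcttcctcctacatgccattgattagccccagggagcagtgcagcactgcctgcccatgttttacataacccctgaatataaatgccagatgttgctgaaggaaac

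The AKR1C1 and AKR1C2 windows hold the same unbroken run of 245 bases. Aligned end to end, AKR1C1 matched the upstream AKR1C3 window at 76.8% of paired bases, the downstream one at 78.6% and AKR1C4 at 69.7%, gaps left out. On the same measure AKR1C1 matched the windows of members outside the AKR1C cluster at 51.2% to 63.3%. The AKR1C4 value is not far above that range, but the measure leaves out gaps. With gap letters counted, AKR1C1 matched AKR1C4 at 59.9% and the windows outside the cluster at 38.3% to 47.7%. The 12 capital bases, ATTGGTTAACCA, lie between 62 and 86 bases before the starts and are absent from the AKR1C4 window. They were found in 5 of 35116 windows on either strand (0.0142%), of which 4 are the ones shown and the other belongs to PPFIA2. As the run was taken from the windows themselves, its presence in them is by construction.

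Other motifs were searched on both strands. The core of the antioxidant response element, TGACNNNGC, which NRF2 binds, was present in both AKR7A2 windows and in 0 of the other 10, against 10.9% of all windows. The AP-1 motif TGANTCA was in 0 of 12 windows (6.57% of all). CCAAT was in 5 windows, those of AKR1C1, AKR1C2 and AKR1C3 and 1 of AKR1B1 (32% of all), and in the AKR1C windows it is the reverse strand of the first 5 capitals. TATAAA was in the upstream AKR1C3 window on the reverse strand and in the AKR1C4 window on the forward strand (10.7% of all). GATAAG was in the downstream AKR1C3 window and the AKR1C4 window (5.65%), and GTTAAT in the AKR1D1 window (6.23%). A match describes letters only, and these windows leave out distant sites.

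AKR1D1, the steroid 5-beta-reductase of bile acid synthesis and steroid hormone breakdown, read 8.16 in control cells, 7.95 after GO and 8.30 after rGO. The GO array was the lowest and the rGO array the highest, with differences from control of -0.22 and 0.14. GO minus rGO was -0.35.

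The family 7 enzymes reduce the dialdehyde of aflatoxin, and AKR7A2 also reduces succinic semialdehyde. AKR7A2 read 10.19 in control cells, 10.39 after GO and 10.25 after rGO, so it was slightly higher in both exposed arrays (0.20 and 0.06). AKR7A3 stood at 7.47, 7.48 and 7.63 in the same order, with differences of 0.02 and 0.17. Neither gene differed by 1.5-fold in any comparison.

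Read against all genes, 4 of 7 aldo-keto reductases were at least 2-fold lower with GO, where 0.914% of the 11050 genes past the filter were, and 0 of 7 were at least 2-fold higher, where 0.253% were. The same 4 members were past 1.5-fold, where 4.23% of genes were lower and 1.91% higher. The median difference of the 7 genes was -1.03 and that of all genes 0.01. As the genes were chosen with earlier results of these data known, setting them beside all genes does not test the list. With each gene's probe sets averaged, 3 of 7 were past 2-fold and the median was -0.54, since AKR1C1 left the count; under quantile normalization 3 were past 2-fold too.

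In the rGO comparison 0 of 7 members were 2-fold lower or higher, where 0.0181% of genes were lower and 0% higher, and 0 were past 1.5-fold, where 0.127% were lower and 0.0271% higher. The median of the members was -0.13 against -0.01 for all genes. Below 0 were 4 of 7 members, where 5866 of all 11050 genes were. Those 4 were the genes that were 2-fold lower with GO, at -0.13 to -0.33. Both comparisons use the one control array, so their signs are not independent.

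**Figure D2:**
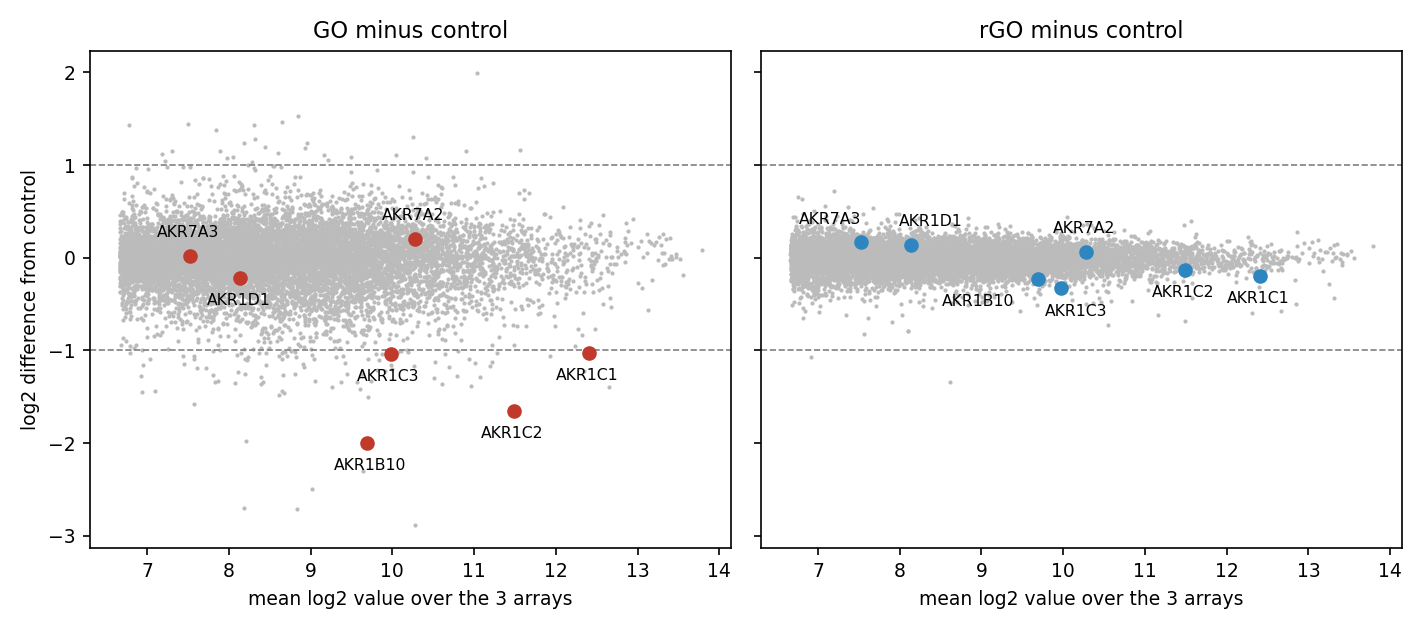
Log2 difference from control (y axis) against the mean log2 value over the 3 arrays (x axis) for the 11050 genes past the level filter (grey), with the 7 aldo-keto reductases coloured and dashed lines at 2-fold. In the GO comparison AKR1B10 (-1.99) and AKR1C2 (-1.65) lie below nearly all genes of their level, and in the rGO comparison all 7 genes lie between -0.33 and 0.17.

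Between the exposed arrays, AKR1B10 and AKR1C2 were at least 2-fold lower with GO than with rGO, 2 of 7 members where 0.534% of genes were lower and 0.262% higher by as much. At 1.5-fold the count was 4 of 7, with AKR1C1 at -0.83 and AKR1C3 at -0.71, where 3.2% of genes were lower and 1.82% higher. The members' median was -0.71 against 0.01 for all genes. GO and rGO were each given at their own EC20, and whether their doses were matched is unknown. The comparison sets the arrays side by side only.

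The AKR1C genes lie in a cluster on chromosome 10 and AKR1B10 lies on chromosome 7, and the nearest measured genes were read beside them. With GO, 0.914% of all genes past the filter were 2-fold lower and 0.253% higher. Around the AKR1C cluster, 0 of the 4 neighbours past the filter, of 10 examined, were 2-fold lower or higher with GO. Their GO differences ran from -0.15 for NET1, an activator of the GTPase RhoA, to 0.52 for KLF6, a zinc finger transcription factor. Around AKR1B10, 0 of the 7 neighbours past the filter were past 2-fold, and they ran from -0.39 for BPGM, which makes bisphosphoglycerate, to 0.04 for CHCHD3, a mitochondrial membrane protein. Neighbours were taken as 5 measured genes to either side, ordered as in RefSeq, a rule chosen after the values of the members were seen.

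**Figure D3:**
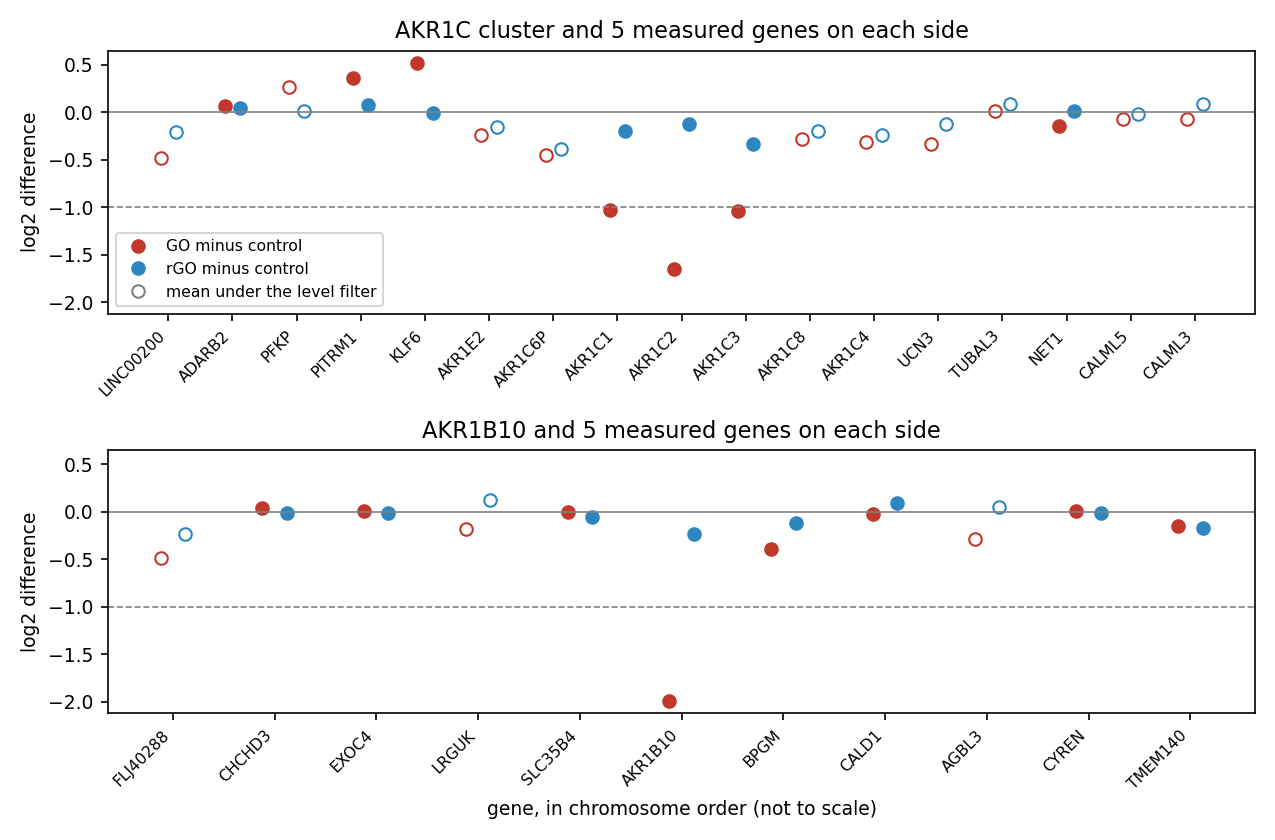
Log2 difference from control (y axis) for the AKR1C cluster and AKR1B10 with 5 measured genes on each side, in chromosome order (x axis, not to scale); filled points passed the level filter and open points did not. AKR1C1, AKR1C2, AKR1C3 and AKR1B10 in the GO comparison are the points at or below the dashed 2-fold line, and with GO their filled neighbours lie between -0.39 and 0.52.

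The regulators of the NRF2 response were set beside the members. Of 9 regulators past the filter, 1 was at least 2-fold lower with GO (0.914% of all genes past the filter) and 0 higher (0.253%), with a median of -0.12 against 0.01 for all genes. That gene was RBX1, a ring-finger subunit of cullin ubiquitin ligases, which read 11.00 in control cells, 9.96 after GO and 10.96 after rGO (2.06-fold lower with GO). NFE2L2, which encodes NRF2 itself, stood at 11.19, 10.30 and 11.05 in the same order, 1.85-fold lower with GO. CUL3, the cullin of the ligase that degrades NRF2, differed by -0.40 and KEAP1, its substrate adaptor, by -0.12. These named genes are all on the lower side. Of the 9 regulators, 5 were below 0 and 4 above, the highest at 0.28, where all 11050 genes had 5400 below and 5643 above. NFE2L2 did not reach the 2-fold limit, and whether its level bears on that of AKR1B10 or the AKR1C genes was not tested.

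The other NRF2 targets were read as a list in the same way. Of 22 past the filter, 17 were below 0 and 5 above, where all 11050 genes had 5400 below and 5643 above. The median was -0.15 against 0.01 for all genes. Past 2-fold were 0 of the 22, where 0.914% of all genes were lower and 0.253% higher. Thioredoxin TXN stood at -0.73, the glucuronate-forming dehydrogenase UGDH at -0.53, and GCLC, the catalytic subunit of glutathione synthesis, at -0.41. NQO1, a quinone reductase often read as the marker of this response, stood at -0.37. The targets named here are all on the lower side, and the highest of the 22 stood at 0.23. After rGO the list's median was -0.03, with 9 above 0 and 13 below.

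Of 37 carbonyl and aldehyde enzymes listed outside the family, 24 passed the filter, with a median of -0.11 with GO. Among the 24, 16 were below 0 and 8 above, where all 11050 genes had 5400 below and 5643 above. ALDH1A1, which oxidises retinal to retinoic acid, was the 1 gene past 2-fold (0.914% of all genes lower, 0.253% higher), reading 11.65 in control cells, 10.52 after GO and 11.48 after rGO. It was 2.19-fold lower with GO. The alcohol dehydrogenase ADH4 stood at -0.77 with GO and 0.30 with rGO, and the retinal reductase DHRS3 at 0.66 and 0.18.

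Enzymes of the pathways in which these reductases take part were mostly a little under control in the GO array. Past 2-fold were 0 genes in the 4 lists that follow, where 0.914% of all genes were lower and 0.253% higher. Of all 11050 genes, 5400 were below 0. The counts cover only genes past the filter, which were 10 of 23 listed steroid genes and 6 of 15 bile acid genes. They were 9 of 11 polyol, fructose and glucuronate genes and 12 of 15 NADPH genes. Steroid enzymes had a median of -0.12, with 9 of 10 below 0, among them HSD17B2 (-0.53), which oxidises oestradiol and testosterone, HSD11B2 (-0.48), which inactivates cortisol, and HSD17B11 (-0.32). For bile acid synthesis the median was -0.29 and 6 of 6 genes were below 0, led by the acyl-CoA synthetase SLC27A2 (-0.44), CYP7A1 (-0.38), the rate-limiting enzyme of the pathway, and the oxidase ACOX2 (-0.30). For polyol, fructose and glucuronate genes the median was -0.15, 8 of 9 being below 0, with the gulonate dehydrogenase CRYL1 at -0.26 and the fructokinase KHK at -0.25 after UGDH. In NADPH supply, 8 of 12 genes were below 0 and the median was -0.09, including the mitochondrial NAD kinase NADK2 (-0.45), MTHFD2 (-0.38) and IDH1 (-0.30).

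Retinoid genes, 7 of 17 listed past the filter, were the list with a median above 0 with GO, at 0.08. That median is small beside the robust SD of 0.244 over all genes. Above 0 were 6 of the 7, where 5643 of all 11050 genes were. After DHRS3 (0.66), the retinol saturase RETSAT stood at 0.44 and the retinol dehydrogenase RDH10 at 0.19. After rGO the medians of the retinoid list and the 4 before it ran from -0.05 to 0.05. Some genes belong to more than 1 list, such as UGDH and DHRS3.

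**Figure D4:**
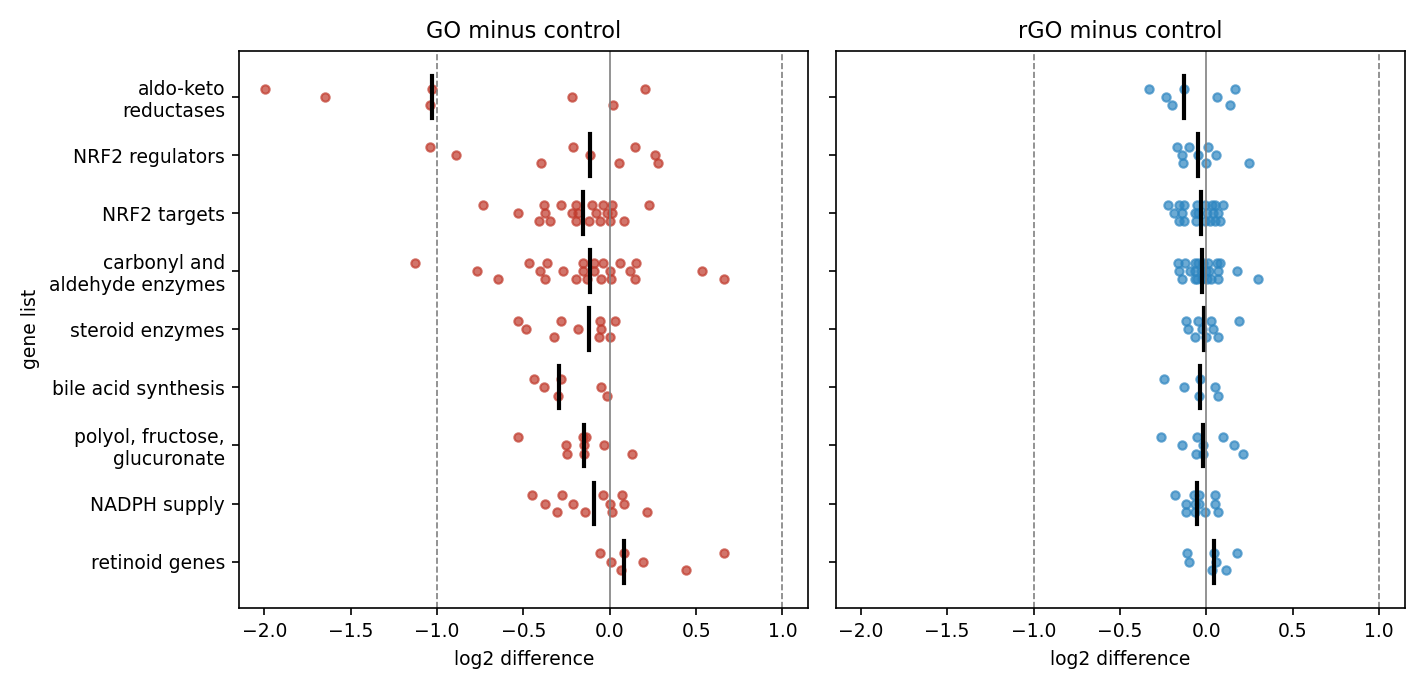
Log2 difference from control (x axis) of the 7 aldo-keto reductases and of the genes of 8 related lists (y axis) in the GO and rGO comparisons; each point is a gene past the level filter, black bars are medians and dashed lines mark 2-fold. The median of the aldo-keto reductases with GO is -1.03, and those of the other lists lie between -0.29 and 0.08.

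Genes nearest to a member in their pair of differences from control were found by Euclidean distance over the 3 arrays. For AKR1B10 these were PFDN4, a prefoldin subunit (distance 0.18; -1.98 with GO and -0.05 with rGO), the metallothionein MT1M (0.35; -2.30 and -0.06) and AKR1C2 (0.36). For AKR1C2 these were the centromere protein gene ITGB3BP (0.17; -1.48 and -0.11), the ciliary transport gene IFT74 (0.21; -1.45 and -0.06) and the kinetochore gene NUF2 (0.22; -1.43 and -0.13). After GO the value of IFT74 was 5.99, below the level that the filter asks of a mean. A likeness over 3 arrays is a description of those arrays only.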

How the data were processed

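Log2 expression values from 3 arrays, 1 per group, were used as deposited by the authors. RMA and MAS5 are named, per the submitters' processing notes, with no role or version, and near-equal distributions show values already normalised between arrays; the genome build was not given in the sources used here. Probe sets were named through the platform's gene annotation, which can be old: of 33297, 19460 had 1 gene symbol, 1754 several and 12083 none listed. A gene was represented by its probe set with the highest mean. Differences of log2 values were counted at 2-fold, without a test.

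The text names all members, the 3 genes of each related list with the largest GO difference and the 3 genes nearest to AKR1B10 and AKR1C2; KEAP1, NQO1 and the neighbours were picked after their values were seen. The members and lists were chosen with earlier results of these data known. Alternatives were 3 normalizations, 3 filters, averaged probe sets and thresholds of 1.5-fold and 3-fold. The counting was tested on simulated data with less spread between arrays than here and with planted changes only in strongly expressed genes. It checks the code, not the reliability of counts from single arrays. Python 3.11.15, pandas 2.3.3, statsmodels 0.14.6 and Biopython 1.88 were used.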

Additional observations from a re-analysis of the deposited data

How the results depend on the processing

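Of the 27 differences (9 probe sets, 3 comparisons), 0 changed sign under quantile normalization, median centring or a loess on level, and the largest move was 0.06. AKR1C1 fell short of 2-fold with GO under quantile normalization (-0.97) and with its probe sets averaged (-0.54). The count of members past 2-fold with GO was 4, and 2 at a 3-fold threshold; between GO and rGO it was 2, and 4 at 1.5-fold and 1 at 3-fold. The members' median with GO was -0.67 with no level filter, which adds AKR1C4, and -0.54 with probe sets averaged; for GO minus rGO it was -0.53 and -0.39. The share of all genes 2-fold lower with GO was 0.914%, and 0.603% with no level filter, which adds weakly expressed genes. At 3-fold it was 0.0724% (GO minus rGO 0.0633%), and 0.0090% were higher in each. No paired analysis was possible because each group has 1 array. Weak signal limits AKR1C4 and the weaker AKR1C1 probe set.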

Other observations

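Other genes of the AKR1C cluster were weak. The reductase gene AKR1E2, AKR1C8 and the pseudogene AKR1C6P did not pass the level filter. AKR1C8 read 6.27 in control cells, 5.99 after GO and 6.07 after rGO. The GO and rGO differences from control were -0.24 and -0.15 for AKR1E2, -0.28 and -0.20 for AKR1C8, and -0.45 and -0.39 for AKR1C6P. In each of these the exposed arrays lay close to each other, unlike in AKR1C2. Of the potassium channel beta subunits, which belong to the same superfamily, KCNAB2 passed the filter and differed by -0.01 with GO and -0.09 with rGO.

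Around AKR1D1 on chromosome 7 and the AKR7A genes on chromosome 1, 0 of 6 and 0 of 10 neighbours past the filter were 2-fold lower or higher with GO. Over all genes past the filter, 0.914% were lower and 0.253% higher by as much. Around the AKR7A genes ALDH4A1, a mitochondrial dehydrogenase of proline breakdown, was the highest at 0.53, and CREB3L2, a transcription factor of the secretory pathway, was the highest around AKR1D1 at 0.49.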
